A study of Macaca mulatta with 6 samples.

Results

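Transcripts of 9 epithelial genes were followed by bulk RNA sequencing in cells cultured from the rhesus monkey testis. The genes were the simple epithelial keratins KRT7, KRT8, KRT18 and KRT19, the transcription factors ELF3 and PAX8, the 14-3-3 protein gene SFN, the protease inhibitor gene SPINT2 and the adhesion molecule gene EPCAM. They were chosen by name because their counts differed between cultures with and without platelet-derived growth factor (PDGF), so the difference itself is given as a description and was not tested for them. Of the 9 genes, 8 had a row among the 17795 genes counted and 7 passed the filter on low counts. EPCAM did not pass, and KRT8 was not analysed here.

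The study grew spermatogonial stem cells (SSCs) of the rhesus monkey, which renew themselves and give rise to sperm, in droplets of a 3D hydrogel. Under the name SSC PDGF+ (PDGF in the sample names) stand 3 libraries from cultures given human PDGF, and under SSC PDGF- (PDGFNO in the sample names) 3 from cultures without it. The study's culture methods describe a StemPro-34 based medium for SSCs with serum, PDGF, GDNF, EGF, LIF, bFGF, Wnt3a, melatonin, vitamin C and putrescine, and what replaced PDGF, if anything, in the medium of the other group is not given in the sources used here. The labels name the tissue as testis, place replicate 1 of each group in batch 1 and replicates 2 and 3 in batch 2, and do not state donors, days in culture or whether replicates came from separate cultures, so the p-values measure only the spread between these libraries, which may be technical.

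Totals ranged from 10593805 to 14102697 counts per library. Levels are given in CPM, the count scaled to a fixed library size, with library sizes corrected by the trimmed mean of M values (TMM). Replicates 2 and 3 lay closer to each other (chi-square per degree of freedom 3.36 in SSC PDGF+ and 3.64 in SSC PDGF-) than either did to replicate 1 (at least 44.8). Stromal transcripts were abundant in both groups, with the 7 stroma markers summing to 14085 to 19395 CPM in SSC PDGF+ and 16935 to 19115 CPM in SSC PDGF-. Germ cell markers were unevenly present. The spermatogonial receptor gene GFRA1 had 0 to 3 counts per library in SSC PDGF+ and 2 to 9 in SSC PDGF-. In the same order, DDX4 had 2 to 9 and 13 to 38 counts, DAZL 0 to 7 and 10 to 14, and MAEL 2 to 5 and 22 to 40. ZBTB16 had at most 1 and 5 counts. TNP1 had 349 to 491 and 2499 to 3533 counts, and TNP2 330 to 471 and 2515 to 3396. ID4 had 1725 to 1885 counts in all 6 libraries, at 131 ± 4.22 CPM in SSC PDGF+ and 163 ± 14.4 CPM in SSC PDGF- (SD, n = 3 each). These are bulk libraries, in which fewer cells of a type and less RNA per cell cannot be told apart.

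Keratins form the intermediate filaments of epithelial cells as obligate pairs of a type I and a type II chain. KRT7 and KRT8 are type II chains, KRT18 and KRT19 are type I chains, and together they are typical of simple epithelia such as those of ducts and glands. ELF3 is an ETS family factor of epithelial cells, PAX8 is a paired box factor of the thyroid, the kidney and the genital ducts, and SFN encodes 14-3-3 sigma, an adaptor protein of epithelial cells that takes part in cell cycle arrest. SPINT2 encodes a Kunitz-type inhibitor of membrane-bound serine proteases, and EPCAM encodes a homophilic adhesion molecule of the epithelial surface.

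The sequences in front of 3 of these genes are given because ELF3 and SFN were at or near 0 with PDGF while PAX8 stayed well above 0. Each line holds the 250 bases before the annotated start of the gene, 5′ to 3′ on the strand of the gene, from the RefSeq annotation of Mmul_10. The labels name both Mmul_10 and Mmul_8.0.1 without saying which served the counts, and the gene names of the table matched this Mmul_10 annotation for 17389 of 17795 genes and for 2682 of 2686 LOC identifiers. Capitals mark matches, on either strand, to the motifs searched. TATAAA is the core box of many promoters, GGGCGG is read by SP1, AGGAAG is the core read by ETS factors, AACCGGT is read by Grainyhead-like factors, CACCTG is an E-box read by SNAI and ZEB factors, and TGANTCA is read by AP-1. A match describes these letters only, and is neither a binding site nor a cause.
ELF3: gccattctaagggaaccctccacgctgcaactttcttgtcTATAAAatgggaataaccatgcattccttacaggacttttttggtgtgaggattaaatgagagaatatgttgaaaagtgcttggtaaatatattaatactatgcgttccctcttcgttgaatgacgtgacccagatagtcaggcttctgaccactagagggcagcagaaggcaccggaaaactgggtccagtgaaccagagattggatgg
SFN: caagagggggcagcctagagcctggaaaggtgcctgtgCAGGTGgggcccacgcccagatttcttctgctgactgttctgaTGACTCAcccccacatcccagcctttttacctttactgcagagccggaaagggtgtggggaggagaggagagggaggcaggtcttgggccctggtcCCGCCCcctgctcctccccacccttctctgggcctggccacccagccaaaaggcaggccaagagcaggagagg
PAX8: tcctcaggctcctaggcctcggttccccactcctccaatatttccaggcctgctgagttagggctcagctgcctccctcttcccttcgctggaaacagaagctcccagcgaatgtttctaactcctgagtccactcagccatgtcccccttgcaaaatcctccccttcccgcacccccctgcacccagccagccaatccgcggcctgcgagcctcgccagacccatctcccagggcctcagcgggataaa
The ELF3 sequence (chr1:59440759-59441008, plus strand) holds TATAAA at bases 210 to 205 before the start. The SFN sequence (chr1:197903330-197903579, minus strand) holds an SP1 box, the E-box and an AP-1 site. The sequences before SPINT2 (3 SP1 boxes and 3 E-boxes) and EPCAM (1 SP1 box) are not shown. The PAX8 sequence (chr13:16459041-16459290, minus strand) held no match to these motifs, which says only that the letters are not in this window.

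Over 21102 promoters of the same length, TATAAA occurred in 9.9%, GGGCGG in 43.4%, AGGAAG in 25.7%, CACCTG in 19.5%, TGANTCA in 5.15% and AACCGGT in 0.739%. The GC content was 63.2% before SFN, 61.2% before PAX8 and 44.0% before ELF3, around a median of 57.2% for all promoters. ELF3 and SFN, both at or near 0 with PDGF, thus had the lowest and the highest GC content of these 3 sequences.

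Among the keratins, KRT7 differed most. KRT7 had 11, 6 and 13 counts in SSC PDGF+ replicates 1, 2 and 3, and 1049, 1245 and 1198 counts in SSC PDGF- replicates 1, 2 and 3. The 3 libraries with PDGF were all low and the 3 without were all high, with no overlap. The level was 0.729 ± 0.254 CPM in SSC PDGF+ against 108 ± 18.6 CPM in SSC PDGF- (SD, n = 3 each). On the group totals, KRT7 was 145-fold higher without PDGF, with a counting interval (exact, 95%) from 101 to 215, and 0.689% of the SSC PDGF- level was left with PDGF. This and the counting intervals below rest on pooled counts, and leave out the spread between libraries.

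KRT18, a type I chain that can pair with KRT7 or KRT8 in simple epithelia, was lower with PDGF but stayed well above 0. It had 143, 153 and 119 counts across the libraries with PDGF against 310, 344 and 357 across those without. The level was 10.2 ± 1.58 against 31.1 ± 5.01 CPM (SD, n = 3 each), a 3.04-fold higher total without PDGF (95% counting interval 2.71 to 3.41). The lowest library without PDGF, at 25.4 CPM, lay above the highest with PDGF, at 11.96 CPM.

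KRT19, the shortest type I keratin, had the smallest ratio of the group totals among the 8 genes. Its counts were 68, 129 and 107 with PDGF against 132, 165 and 165 without. In CPM the groups did not overlap but came close, since SSC PDGF+ replicate 2 reached 10.1 CPM and SSC PDGF- replicate 1 had 10.8 CPM. The level was 7.57 ± 2.78 CPM with PDGF against 14.3 ± 2.97 CPM (SD, n = 3 each) without, and the ratio of the totals was 1.89 (95% counting interval 1.64 to 2.20). These libraries were of different batches, and in both groups KRT19 was lowest in batch 1.

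The ratio of KRT7 to KRT18 counts differed with PDGF. Within a library, KRT7 had 3.38, 3.62 and 3.36 counts per count of KRT18 in SSC PDGF- replicates 1, 2 and 3, and 0.0769, 0.0392 and 0.109 in the SSC PDGF+ replicates. In counts, KRT7 thus exceeded KRT18 in all libraries without PDGF and was below KRT18 in all libraries with it. The transcripts are annotated at 1629 and 1547 bases. KRT19 per count of KRT18 was 0.426, 0.480 and 0.462 without PDGF and 0.476, 0.843 and 0.899 with it, so that the batch 1 library with PDGF lay among those without. PAX8 per count of KRT18 was 1.90, 2.14 and 1.63 without PDGF and 2.18, 2.49 and 3.34 with it, with SSC PDGF+ replicate 1 just above the highest library without PDGF. These ratios do not depend on library scaling. Since the type II chain KRT8 was not analysed here, they do not give the balance of type II to type I chains.

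**Figure D1:**
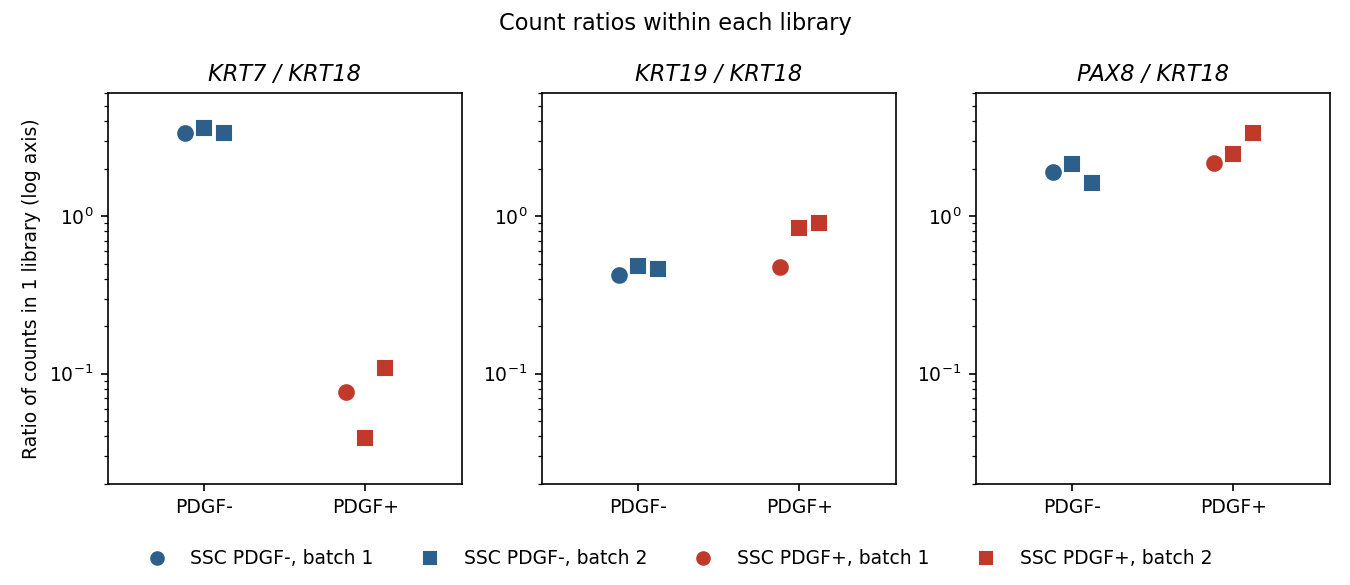
Ratios of the counts of KRT7, KRT19 and PAX8 to the counts of KRT18 in the same library (log axis) for the 3 SSC PDGF- and the 3 SSC PDGF+ libraries, circles for batch 1 and squares for batch 2. KRT7 to KRT18 lay between 3.36 and 3.62 without PDGF and between 0.0392 and 0.109 with PDGF, while the KRT19 ratios of the groups overlapped and the PAX8 ratios reached 2.14 without PDGF and 3.34 with it.

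Of the transcription factors, ELF3 had no count with PDGF. Its counts were 0, 0 and 0 in SSC PDGF+ against 49, 40 and 54 in SSC PDGF-, where the level was 4.38 ± 0.792 CPM (SD, n = 3). Against a floor of 3 counts over the SSC PDGF+ group, about the 95% upper limit of a count of 0 for counting error alone, ELF3 was at least 59.4-fold lower with PDGF. PAX8 stayed measurable in every library, with 312, 381 and 398 counts across the libraries with PDGF against 588, 737 and 583 across those without. The level of PAX8 was 26.9 ± 5.07 against 58.6 ± 11.2 CPM (SD, n = 3 each), a ratio of 2.18 (95% counting interval 2.02 to 2.35). The libraries with PDGF reached at most 29.9 CPM and those without had at least 48.3 CPM.

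SFN was close to absent with PDGF. It had 0, 1 and 0 counts across the libraries with PDGF against 31, 36 and 62 across those without, and the single count was in replicate 2. The level in SSC PDGF- was 4.02 ± 1.83 CPM (SD, n = 3), with replicate 3 at 6.07 CPM and the other two at 2.54 and 3.45 CPM. The ratio of the totals was 161, with a 95% counting interval of 28.4 to 6400 because it rests on 1 count.

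At the cell surface, SPINT2 and EPCAM were both lower with PDGF but at very different levels. SPINT2 had 79, 113 and 99 counts across the libraries with PDGF against 220, 197 and 195 across those without. Its level was 7.20 ± 1.76 against 18.7 ± 0.544 CPM (SD, n = 3 each), a ratio of 2.62 (95% counting interval 2.28 to 3.02). Relative to the mean, its libraries without PDGF spread less than for any other of the 8 genes. EPCAM had 0, 1 and 0 counts across the libraries with PDGF against 12, 6 and 3 across those without. The EPCAM ratio was 26.2 with a 95% counting interval of 4.21 to 1083, and at these counts its size is poorly fixed.

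**Figure D2:**
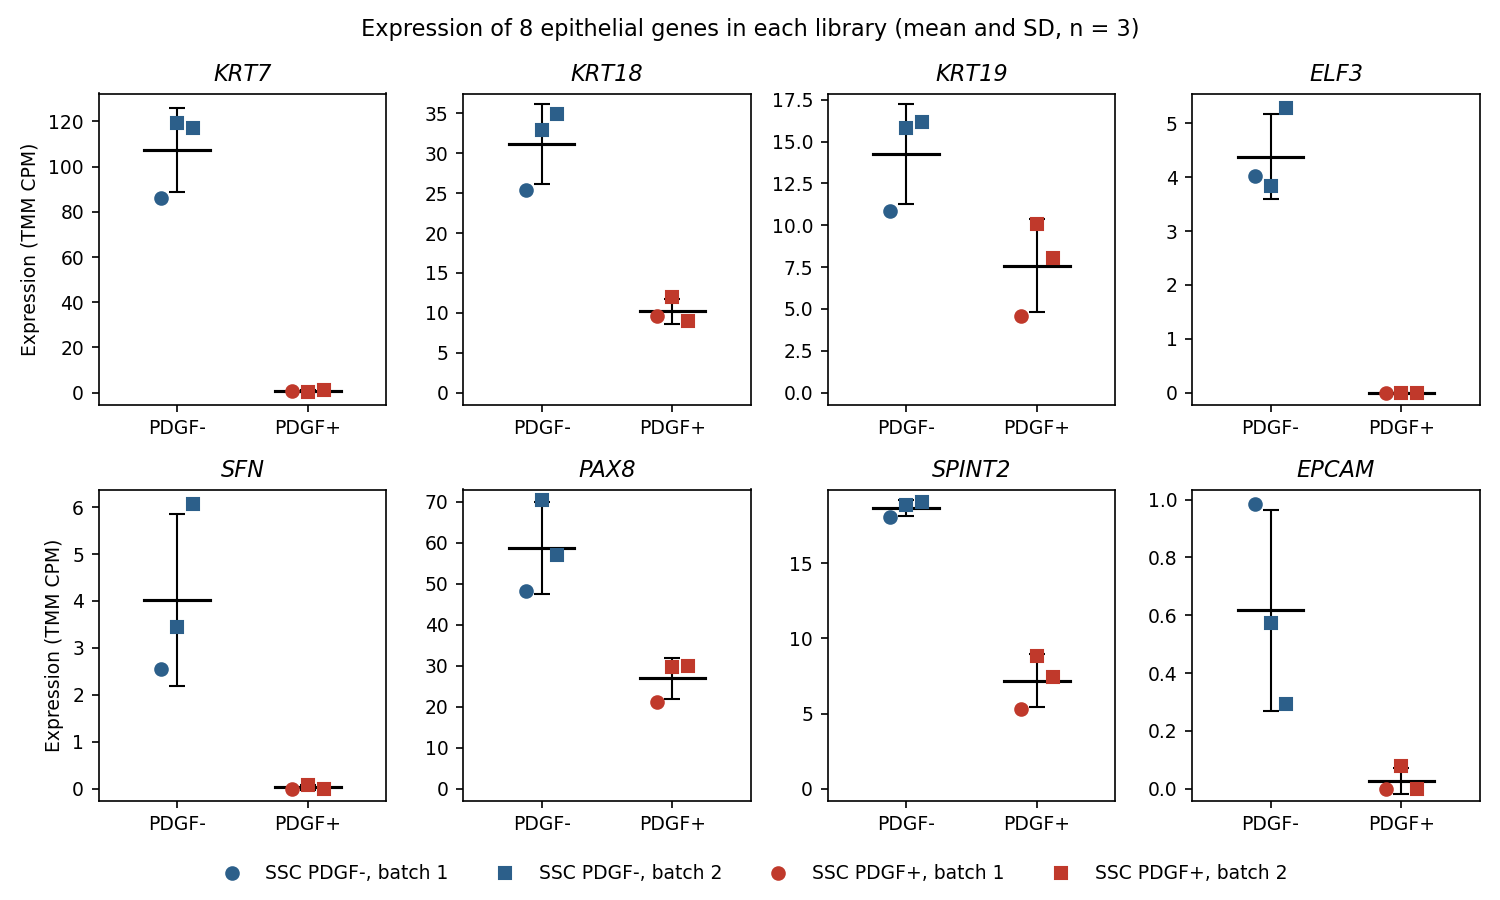
Level of each of the 8 genes in every library in TMM-scaled CPM, each on its own axis from 0, with the mean and SD of 3 libraries per group, circles for batch 1 and squares for batch 2. In all 8 panels the 3 SSC PDGF+ libraries lie below the 3 SSC PDGF- libraries, with ELF3 at 0 and KRT7 at 0.729 CPM on average with PDGF.

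In all, the groups did not overlap in CPM for 8 of the 8 genes, whereas 19.3% of all 11539 genes tested were non-overlapping and lower with PDGF. In edgeR's quasi-likelihood test, with an adjusted p under 0.05 taken as a call, 6 of the 7 genes past the filter were called lower (10.7% of all genes tested, with 7.61% called higher), and 7 of 7 with the replicate number, which marks the batch, as a block in the model (29.0%). Since the genes were chosen from this contrast, nothing is read from these counts. The median log2 fold change was -1.61 over the 7 genes and 0.02 over all genes tested. The fitted log2 fold change was -7.18 (SE 0.29) for KRT7, -1.61 (SE 0.20) for KRT18, -0.92 (SE 0.31) for KRT19, -1.12 (SE 0.21) for PAX8 and -1.38 (SE 0.22) for SPINT2, and fitted values of ELF3 and SFN depend on the prior count.

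By the counts left with PDGF, 4 of the 8 genes had at most 30 over the 3 libraries (KRT7, ELF3, SFN and EPCAM) and 4 had 291 to 1091 (KRT18, KRT19, PAX8 and SPINT2). As a share of the SSC PDGF- level, 52.8% of KRT19, 45.9% of PAX8, 38.1% of SPINT2 and 32.9% of KRT18 were left with PDGF, against 3.82% of EPCAM, 0.689% of KRT7 and 0.622% of SFN. The type II chain KRT7 and the type I chain KRT18 thus lay far apart. Summed over the 8 genes, the level was 52.6 ± 10.2 CPM in SSC PDGF+ against 239 ± 37.5 CPM in SSC PDGF- (SD, n = 3 each). KRT7 supplied 43.9% to 45.8% of the summed counts without PDGF and 0.765% to 1.79% with it. Without KRT7, the sums were 51.9 ± 10.3 CPM (SD, n = 3) and 132 ± 19.0 CPM (SD, n = 3).

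Levels between genes were compared per kilobase of the longest annotated transcript, which was not available for KRT19. In SSC PDGF-, KRT7 was highest at 66.0 ± 11.4 CPM per kb (SD, n = 3). PAX8 at 21.4 ± 4.09 and KRT18 at 20.1 ± 3.24 CPM per kb (SD, n = 3) followed and did not differ beyond their spread. SPINT2 came next at 11.8 ± 0.344, then SFN at 4.80 ± 2.19, ELF3 at 1.59 ± 0.288 and EPCAM at 0.654 ± 0.368 CPM per kb (SD, n = 3). In SSC PDGF+ the order by CPM per kb was PAX8 at 9.81 ± 1.85, KRT18 at 6.58 ± 1.02, SPINT2 at 4.55 ± 1.11 and KRT7 at 0.447 ± 0.156 (SD, n = 3). Among the genes with a length, KRT7 was thus highest without PDGF and below SPINT2 with it.

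Batch was not used to choose the genes and was tested. In a model with group and batch, all 7 genes past the filter had a positive log2 fold change of batch 2 over batch 1, and 3 of 7 passed an adjusted p of 0.05, all of them higher in batch 2. Over all genes tested, 57.2% passed in either direction and 29.3% were higher in batch 2, so the share of 3 in 7 is below the former share and above the latter. KRT19 was higher in batch 2 by 0.74 on the log2 scale (SE 0.19, edgeR adjusted p = 0.00146), with 9.06 against 4.59 CPM in SSC PDGF+. PAX8 was higher by 0.45 (SE 0.10, edgeR adjusted p = 0.000441), and KRT7 by 0.44 (SE 0.11, edgeR adjusted p = 0.00159).

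For KRT7 this was seen in the libraries without PDGF, at 86.1 CPM in batch 1 and 118 CPM in batch 2, while with PDGF it had 0.742 and 0.722 CPM. KRT18 differed by 0.29 (SE 0.14, edgeR adjusted p = 0.0825), SPINT2 by 0.29 (SE 0.17, edgeR adjusted p = 0.150), SFN by 0.93 (SE 0.57, edgeR adjusted p = 0.173) and ELF3 by 0.18 (SE 0.53, edgeR adjusted p = 0.795). The KRT18 value passed the threshold without SSC PDGF+ replicate 3 (0.38, edgeR adjusted p = 0.0263) and in limma-voom (0.32, adjusted p = 0.0436).

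The difference with PDGF had the same direction in each batch. The genes were chosen over both batches together, so this follows from the choice and is not a replication. In batch 1 the log2 difference of PDGF+ over PDGF- (0.5 counts added) was -6.79 for KRT7, -1.40 for KRT18, -1.23 for KRT19, -1.20 for PAX8 and -1.75 for SPINT2. In batch 2 it was -7.31 for KRT7, -1.70 for KRT18, -0.82 for KRT19, -1.10 for PAX8 and -1.22 for SPINT2. Batch 1 holds 1 library per group. A test of the interaction of group and batch called 0 of the 7 genes, with a lowest adjusted p of 0.971 for SPINT2, and 0 of all 11539 genes in edgeR (526 at an unadjusted p under 0.05). DESeq2 called 0 and limma-voom 1 of all genes for the same term, and edgeR called 37 negative and 12 positive without SSC PDGF+ replicate 2, 28 and 16 without SSC PDGF- replicate 2, and 16 and 30 without SSC PDGF- replicate 3. With 2 residual degrees of freedom, a missed threshold does not show that the batches are alike.

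**Figure D3:**
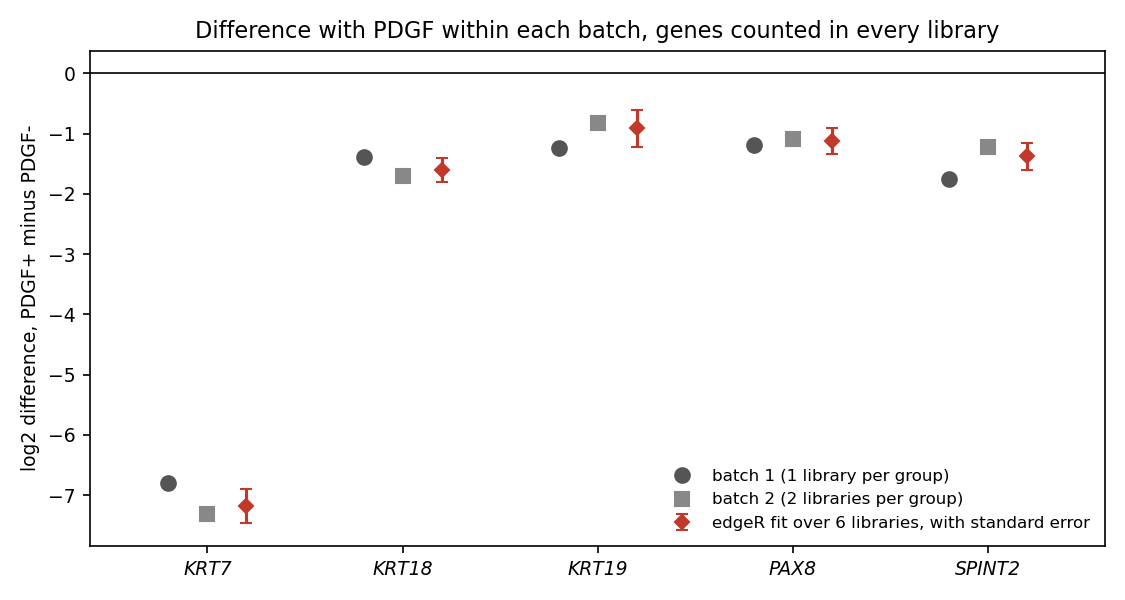
Log2 difference of SSC PDGF+ over SSC PDGF- for the 5 genes with counts in every library, within batch 1 (circles, 1 library per group), within batch 2 (squares, 2 libraries per group) and in the edgeR fit over 6 libraries (diamonds, bars are standard errors). All values are below 0, from -0.82 for KRT19 in batch 2 to -7.31 for KRT7 in batch 2.

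Beside the 3 members, 38 other keratin genes had a row, of which 21 had no count in any library, 7 had 1 to 9 counts in all and 10 had 10 or more. Of these 38, 4 passed the filter (KRT10, KRT12, KRT23 and KRT80), 1 was called lower with PDGF and 0 were called higher. With the replicate block, KRT12 was also called lower and KRT23 higher, which gives 2 lower and 1 higher. For this and every list below, the shares over all genes tested were 10.7% called lower and 7.61% higher. With the replicate block they were 29.0% and 31.1%. Where few genes of a list were tested, its count is a description only. A gene near 0 with PDGF passes the filter only through the libraries without it, so only a lower call is open to it.

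KRT80, a type II keratin of epithelial barriers, was the called gene and had 2, 2 and 0 counts across the libraries with PDGF against 62, 59 and 51 across those without (log2 fold change -5.61, SE 0.53, edgeR adjusted p = 0.000442). Like KRT7, it was near 0 in all libraries with PDGF. KRT80 passed the filter through the libraries without PDGF, so only a lower call was open to it. With 10 counts required in every library, 0 of the other keratins were called. KRT10, the type I keratin of suprabasal epidermis, was similar in both groups at 32.2 ± 6.03 CPM with PDGF against 30.9 ± 7.04 CPM (SD, n = 3 each) without. KRT14, KRT15, KRT16 and KRT17, type I keratins of stratified epithelia and of adnexa, had identical counts, 0 in each library with PDGF and 11, 7 and 11 without it, so these reads cannot be assigned to any single one of them. Without the filter on low counts these 4 were called as well, giving 5 lower, and so they were when SSC PDGF+ replicate 1, 2 or 3 or SSC PDGF- replicate 2 was left out. No member shared its counts with another gene.

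**Figure D4:**
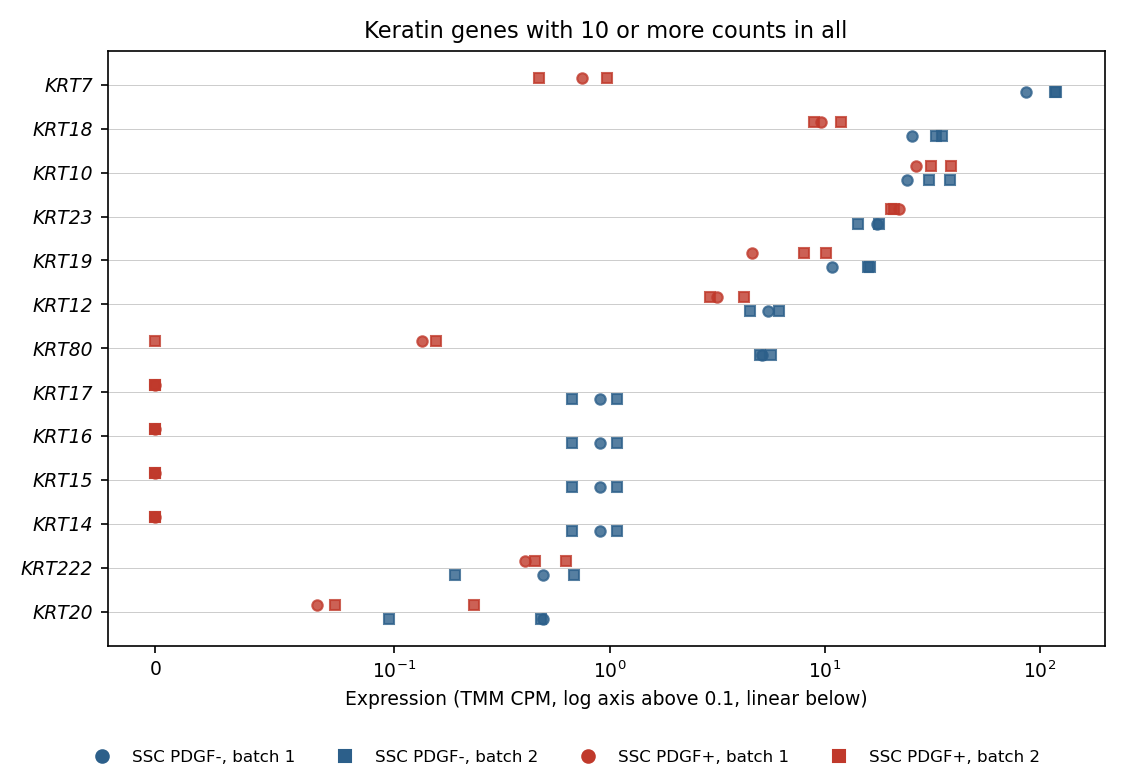
Levels of the 3 keratins followed here and the 10 other keratins with 10 or more counts in all, in TMM-scaled CPM (log axis above 0.1, linear below), circles for batch 1 and squares for batch 2. KRT7 and KRT80 lie far to the left with PDGF, KRT10 overlaps between the groups, and KRT14 to KRT17 share identical counts.

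Genes that anchor or accompany keratin filaments were partly lower as well. Of 20 genes for desmosomal plaque proteins, filament linkers and other intermediate filaments, 16 were tested, 7 were called lower and 1 higher with PDGF, and the median log2 fold change was -0.54. With the replicate block 9 were lower and 6 higher. DES, the muscle intermediate filament desmin, fell by 3.27 on the log2 scale (SE 0.24, edgeR adjusted p = 0.000151). FAM83H, which recruits casein kinase to keratin filaments, fell by 2.53 (SE 0.46, edgeR adjusted p = 0.00747). NES, the intermediate filament nestin, was the one that rose, from 14.4 ± 2.57 CPM (SD, n = 3) to 77.3 ± 4.93 CPM (SD, n = 3) with PDGF (log2 fold change 2.42, SE 0.18, edgeR adjusted p = 0.000156).

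Epithelial genes outside the keratins were read from 3 lists. Of 66 listed genes for epithelial transcription and splicing factors, duct transcription factors and junction, surface or secreted proteins, 55 had a row and 28 were tested. Called lower were 9 and higher 1. The log2 fold change was negative for 23 of 28, and its median was -0.80 against 0.02 over all genes tested. With the replicate block 14 were called lower and 3 higher. Requiring 10 counts in every library left 1 lower and 1 higher. Genes such as CDH1, OVOL1, TSPAN1 and AGR2 passed the filter through the libraries without PDGF, so only a lower call was open to them. The balance of lower and higher calls is therefore a description. The lower count lay between 4 and 11 when single libraries were left out, at 5 when SSC PDGF+ replicate 1 or 3 was dropped and at 4 when SSC PDGF- replicate 3 was.

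Among 21 epithelial factors, 18 had a row, 8 were tested and 1 was called lower (3 lower and 2 higher with the block). OVOL1, a zinc finger repressor of mesenchymal genes, had 8, 2 and 4 counts across the libraries with PDGF against 25, 17 and 33 across those without (log2 fold change -2.73, SE 0.53, edgeR adjusted p = 0.0103), a call lost with replicates 2 and 3 summed (0.0519). Of the other ELF genes of the ETS family listed, ELF5 had no count in any library. ELF1 had 79.7 ± 17.2 CPM with PDGF against 59.4 ± 18.8 CPM (SD, n = 3 each) without, ELF2 had 38.8 ± 10.4 and 40.4 ± 4.55 CPM (SD, n = 3), and ELF4 had 48.8 ± 5.10 and 66.5 ± 8.48 CPM (SD, n = 3). None of these 3 passed the threshold, although ELF1 did so upwards and ELF4 downwards with the replicate block (edgeR adjusted p = 1.69e-05 and 2.24e-05).

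Of 11 duct factors, which hold the paired box relatives of PAX8, 10 had a row, 3 were tested and 1 was called lower (2 with the block). GATA3, a zinc finger factor of the nephric duct, was that gene, with 9, 8 and 4 counts across the libraries with PDGF against 21, 26 and 30 across those without (log2 fold change -2.19, SE 0.44, edgeR adjusted p = 0.0119). Its adjusted p was 0.0556 without SSC PDGF+ replicate 3 and 0.0503 without SSC PDGF- replicate 3, and 0.0758 with replicates 2 and 3 summed. PAX2, the usual partner of PAX8 in the nephric duct, had no count in any library. PAX6 had 25 to 72 counts per library (log2 fold change -0.80, edgeR adjusted p = 0.128), where PAX8 had 312 to 737.

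Junction, surface and secreted proteins numbered 34, of which 27 had a row, 17 were tested, 7 were called lower and 1 higher (9 and 1 with the block), at a median log2 fold change of -1.03. TSPAN1, a tetraspanin of epithelial cells, fell by 3.53 (SE 0.56, edgeR adjusted p = 0.00422), and AGR2, a protein disulfide isomerase of secretory epithelia, fell by 3.27 (SE 0.42, edgeR adjusted p = 0.00177). CDH1, the adherens junction protein E-cadherin, had 4, 0 and 6 counts across the libraries with PDGF against 21, 20 and 18 across those without, and fell by 2.84 (SE 0.67, edgeR adjusted p = 0.0224). That call was lost without any one of 3 libraries, SSC PDGF+ replicate 1 (edgeR adjusted p = 0.0509), SSC PDGF- replicate 2 (0.0689) or SSC PDGF- replicate 3 (0.0676). The highest levels in this list were those of CLDN1, CD9 and LCN2. CLDN1 had 97.2 ± 15.96 CPM with PDGF against 107 ± 26.1 CPM (SD, n = 3 each) without. LCN2 had 13.4 ± 0.930 and 14.97 ± 0.885 CPM (SD, n = 3). Neither was called, with or without the block. CD9 was the gene called higher, at 37.97 ± 1.28 against 24.3 ± 4.12 CPM (SD, n = 3 each, edgeR adjusted p = 0.0342). The CD9 call was lost with replicates 2 and 3 summed (0.212) and without some single libraries.

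**Figure D5:**
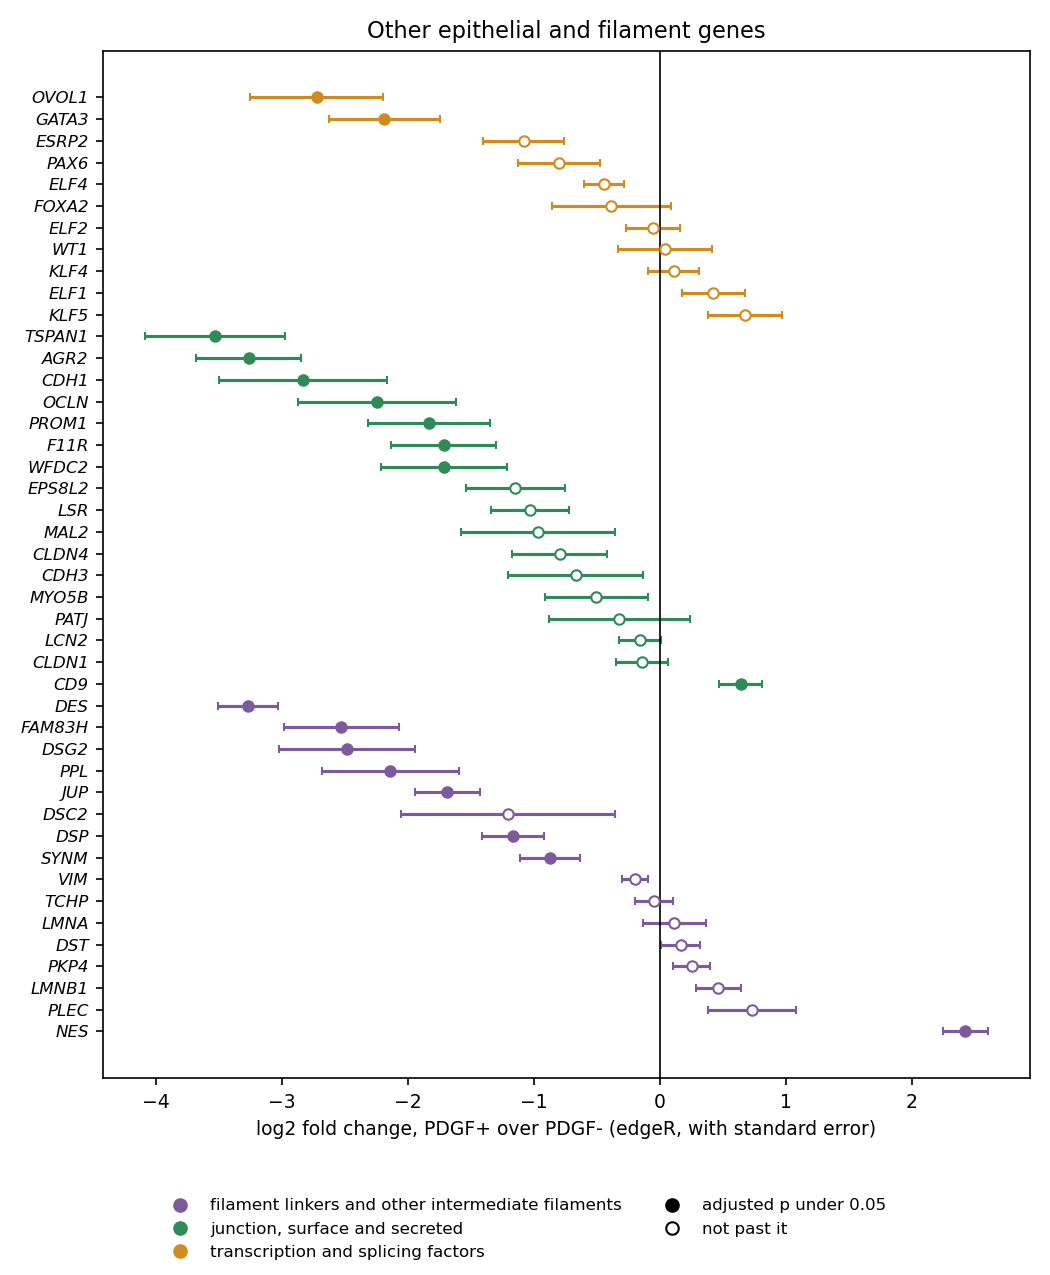
Log2 fold change of SSC PDGF+ over SSC PDGF- with its standard error for the tested genes of the filament, junction and factor lists (edgeR over 6 libraries), filled where the adjusted p was under 0.05 and open where it was not. Of the filled points, DES at -3.27, TSPAN1 at -3.53 and AGR2 at -3.27 lie farthest to the left, and CD9 at 0.64 and NES at 2.42 are the 2 to the right of 0.

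Genes around SPINT2 and SFN were read next. Of 13 genes of the protease and HGF axis that SPINT2 acts on, 10 had a row, 5 were tested, 1 was called lower and 1 higher (2 and 1 with the block). MET, the HGF receptor, fell from 12.5 ± 2.66 to 4.20 ± 0.223 CPM (SD, n = 3) with PDGF (log2 fold change -1.57, SE 0.23, edgeR adjusted p = 0.00319). HGF, its ligand and a product of stromal cells, rose from 45.4 ± 11.2 to 90.4 ± 21.2 CPM (SD, n = 3) (log2 fold change 0.99, SE 0.24, edgeR adjusted p = 0.0233), a call lost without SSC PDGF- replicate 2 (0.0784) or 3 (0.0787). Summing replicates 2 and 3 also lost the HGF call (edgeR adjusted p = 0.117).

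None of the 5 other 14-3-3 genes was called in either direction (1 lower and 2 higher with the block). YWHAQ had 719 ± 87.4 CPM with PDGF against 721 ± 105 CPM (SD, n = 3 each) without, and YWHAE had 610 ± 51.9 and 616 ± 69.9 CPM (SD, n = 3). YWHAZ had 1140 ± 239 and 764 ± 162 CPM (SD, n = 3), and was called higher with the replicate block (edgeR adjusted p = 8.96e-12) but not without it (0.0800).

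Mesenchymal factors and cadherins, which oppose the epithelial programme in other settings, were called in both directions. Of 7 tested, 1 was called lower and 2 higher, and 1 lower and 5 higher with the replicate block. CDH11, a mesenchymal cadherin, fell by 2.08 (SE 0.16, edgeR adjusted p = 0.000195). TWIST2, a mesenchymal factor, rose by 1.12 (SE 0.17, edgeR adjusted p = 0.00363), a call lost with replicates 2 and 3 summed (0.0635). ZEB1, a repressor that reads the E-box searched above, rose by 0.77 (SE 0.21, edgeR adjusted p = 0.0388), and its adjusted p lay between 0.0594 and 0.139 when any 1 library other than SSC PDGF- replicate 1 was left out and was 0.183 with replicates 2 and 3 summed. ZEB2, a reader of the same E-box, was at 174 ± 26.3 and 174 ± 9.27 CPM (SD, n = 3).

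Markers of other cell types were set beside the epithelial genes, and their part in the difference was not tested. KRT7, KRT8, KRT18 and KRT19 are also expressed by mesothelium, of whose 12 markers 10 had a row, 3 were tested and 1 was called lower (1 with the block). The summed level was 29.1 to 38.1 CPM in SSC PDGF+ and 30.3 to 40.8 CPM in SSC PDGF-, with HP as the most abundant gene at 208 to 394 counts per library. UPK3B, the uroplakin gene of mesothelium, fell by 2.42 (SE 0.32, edgeR adjusted p = 0.00200), from 43, 44 and 51 counts without PDGF to 11, 10 and 11 with it, while the defining marker MSLN had 1, 8 and 2 counts without PDGF and 0 with it. The mesothelial marker CALB2 had 6.90 ± 1.28 CPM with PDGF against 6.02 ± 2.28 CPM (SD, n = 3 each) without. HP had 26.0 ± 5.90 and 24.9 ± 7.39 CPM (SD, n = 3). Both were tested and neither was called, with or without the block.

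Of 18 markers of the epididymal and efferent ducts, 15 had a row, 6 of which (among them CRISP1, LCN6, LCN8 and DEFB126) had no count in any library. The 2 tested were not called, with or without the block, and the summed level was 3.51 to 5.16 CPM with PDGF and 4.51 to 5.29 CPM without. The 6 Sertoli markers with a row summed to 110 to 143 CPM with PDGF and 93.4 to 149 CPM without, with 1 of 3 tested called lower. Most of this sum was GATA4, at 127 ± 17.1 CPM with PDGF against 116 ± 26.0 CPM (SD, n = 3 each) without. The called gene was AMHR2 (log2 fold change -1.80, SE 0.37, edgeR adjusted p = 0.0125), while GATA4 and CITED1 were not called. FATE1, a Sertoli marker of the study, was not tested and had 0 counts in each library with PDGF and 14, 17 and 2 without.

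Some peritubular muscle markers were also lower with PDGF. Of 6 tested, 2 were called lower (4 with the block), and their sum was 371 to 482 CPM with PDGF and 698 to 912 CPM without. ACTA2, smooth muscle actin, fell by 1.19 (SE 0.12, edgeR adjusted p = 0.000603), and DES, which also stands in the filament list, is described above.

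Germ cell markers were lower with PDGF in part. Of 13 markers, 8 had a row, 6 were tested and 4 were called lower (6 with the block). The sum of the list was 176 to 211 CPM with PDGF and 566 to 860 CPM without. Most of the sum without PDGF was TNP1 at 296 ± 78.7 and TNP2 at 280 ± 65.8 CPM, against 29.9 ± 7.32 and 31.3 ± 7.87 CPM with it (SD, n = 3). Most of the sum with PDGF was ID4, at 131 ± 4.22 CPM against 163 ± 14.4 CPM without (SD, n = 3). The spermatid gene TNP1 fell by 3.30 (SE 0.27, edgeR adjusted p = 0.000239) and TNP2 fell by 3.17 (SE 0.26, edgeR adjusted p = 0.000261). MAEL, of the piRNA pathway, fell by 3.59 (SE 0.53, edgeR adjusted p = 0.00325).

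Of the stroma markers, 2 of 7 tested were lower (4 lower and 2 higher with the block). The Leydig list had 1 of 4 tested lower (1 lower and 2 higher with the block), at sums of 265 to 333 CPM with PDGF and 233 to 271 CPM without. Most of the Leydig sum was STAR, at 295 ± 34.5 CPM with PDGF against 234 ± 19.4 CPM (SD, n = 3 each) without. IGF1 was the called gene and fell by 1.55 (SE 0.32, edgeR adjusted p = 0.0139), while STAR and DLK1 were the genes higher with the block. INSL3 had 1 count, without PDGF, and CYP11A1 had no count in any library. Of 6 endothelial genes tested 0 were called (2 lower and 1 higher with the block), at sums of 23.0 to 35.2 and 24.0 to 47.6 CPM. Of 2 tested immune genes 0 were called by either fit, PTPRC and CD3E had no count in any library, and the list summed to 17.5 to 19.8 and 11.7 to 18.9 CPM.

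None of the tested genes next to the members on the chromosome was called, where over all genes tested 10.7% were called lower and 7.61% higher. With the replicate block 29.0% of all genes tested were called lower and 31.1% higher. With few neighbours tested, nothing is read from their counts. Over the 2 genes on each side of each member that the annotation names, which leaves out KRT19, there were 29 neighbours in the RefSeq order that are not members themselves, of which 15 had a row, 9 were tested, and 0 were called lower or higher, while EIF4B, GPATCH3 and RNPEP were called lower with the replicate block. EIF4B, which follows KRT18 on the same strand, had 391 ± 26.1 CPM with PDGF against 506 ± 14.5 CPM (SD, n = 3 each) without (log2 fold change -0.37, edgeR adjusted p = 0.0614, and 1.41e-07 with the replicate block). RNPEP, which precedes ELF3, was at 59.7 ± 6.14 and 68.6 ± 6.07 CPM (SD, n = 3), where ELF3 was at 0 and 4.38 CPM. PIGV, beyond SFN, was at 29.5 ± 2.50 and 27.8 ± 1.64 CPM (SD, n = 3). No gene of this annotation overlapped any of the members it names, and KRT19 is not among them.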

How the data were processed

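Per the labels, fastp, HISAT2 2.1.0, SAMtools and featureCounts 2.0.1 were used by the authors, who deposited expected counts per gene, not normalized, with 34 values in 13 genes that are not whole. Values were rounded. Whole counts had been assumed in the design, and the test was kept. The 9 members and the 17 context lists were chosen with earlier results of these data known, and genes named from a list are among its up to 4 called genes per direction with the largest fold change, or among the 3 of highest level where none was called. Further genes named in the text were chosen after their values were seen. The study's single-cell libraries were not used here, and some promoter sequences are not reported here.

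Counts were scaled by TMM and tested with the quasi-likelihood test of edgeR 4.0.16 (R 4.3.3, filterByExpr by group, 11539 genes, Benjamini-Hochberg adjustment over all of them, adjusted p under 0.05 called). The main model held group alone, as the study's methods state no block. Alternatives were DESeq2 1.42.0, limma-voom 3.58.1, other scalings and filters, a stricter threshold, batch as a term, the replicate block, replicates 2 and 3 summed and single libraries left out. Ratios of group totals carry Clopper-Pearson intervals at 95%, and a group at 0 was given a floor of 3 counts. Intervals and floors cover counting error only and leave out the spread between libraries, and PCR reads are not independent molecules. Per the labels a replicate number marks a shared batch, and deviations from the group means correlated within numbers 1, 2 and 3 at r = 0.67, 0.29 and 0.31, so the number was taken as a pairing. Across numbers 2 and 3 the correlation was 0.32 and 0.30, which makes it a pairing of batches.

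The steps were tested on simulated counts with 200 changed genes. For the comparison by PDGF, over 11403 tested genes, 62% of those with a log2 fold change of 1 and 96.9% of those with 2 were recovered, with 9 false calls. These simulated counts held no batch effect and genes were drawn independently. In the libraries themselves 57.2% of genes were called for batch, so these rates need not hold for them. Tables were made in Python 3.11.15 with pandas 2.3.3 and scipy 1.17.1, and figures with matplotlib 3.10.9.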

Additional observations from a re-analysis of the deposited data

How the results depend on the processing

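The log2 fold change with PDGF was negative for the 7 members tested under all alternatives that kept them, those that left out 1 library included. The members were chosen from this contrast and their groups did not overlap, so the sign follows from the choice. Only the range of each value is described. It lay between -7.42 and -6.95 for KRT7, -1.75 and -1.51 for KRT18, -1.17 and -0.64 for KRT19, -1.26 and -0.96 for PAX8 and -1.54 and -1.19 for SPINT2. ELF3 ranged from -9.32 to -6.89 and SFN from -8.61 to -6.14, both fitted against 0 or 1 count. For ELF3 between batches, 0.18 in the fit reported, leaving out single libraries gave -0.071 (without SSC PDGF- replicate 3) to 0.39.

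With the replicate block, 3347 genes were called lower and 3587 higher with PDGF (1230 and 878 without it), 2 and 1 of the other keratins and 14 and 3 of the epithelial context genes (9 and 1 without it). With batch as a term the counts were 3387 and 3604, 2 and 1, and 15 and 3. With replicates 2 and 3 summed they were 487 and 206 over all genes, 5 keratins lower, and 3 and 0 context genes. Chosen after seeing the data, summing with batch as a term gave 3420 and 3669, 6 and 1, and 17 and 3. An adjusted p under 0.01 left 544 and 358 genes and 2 and 0 context genes. Requiring 10 counts in every library left 0 of the other keratins called. It left 1 context gene lower and 1 higher, as it removes genes near 0 with PDGF. Without a filter 5 keratins were lower.

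With single libraries left out, genes lower ranged from 726 to 1726 and higher from 435 to 1284, other keratins lower from 1 to 5, and context genes lower from 4 to 11 and higher from 0 to 2. The effect of PDGF between batches was called negative for 0 to 37 and positive for 0 to 30 genes when 1 library of batch 2 was left out (37 and 12 without SSC PDGF+ replicate 2, 28 and 16 without SSC PDGF- replicate 2, 16 and 30 without SSC PDGF- replicate 3), for 6 and 7 without a filter, and for 1 positive in limma-voom. Of the 28 called genes that the naming rule takes from the gene lists, 14 lost the call under at least 1 alternative (AMHR2, CD9, CDH1, DDX4, DSG2, GATA3, HGF, IGF1, OCLN, OVOL1, PDGFRA, PPL, TWIST2 and ZEB1) and 0 reversed. The cause was not tested. Depth limits EPCAM, SFN and ELF3, whose ratios rest on 0 or 1 count with PDGF, and no source used here states that replicates 2 and 3 are separate cultures.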

Other observations

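The genes whose profile over the 6 libraries was most like the mean profile of the 7 tested members, among 10302 genes searched, were GSTM3, PHF7, MGP, ELN, DES, GPRC5B, PAMR1 and OAZ3. Pearson's r of log2 CPM was 0.9998 for GSTM3 and 0.9989 for OAZ3, but the libraries fall into 2 groups, so that these values mainly measure the difference with PDGF and are a description over 6 libraries that share scaling and batch. ELN, the elastin gene, had 8, 14 and 10 counts across the libraries with PDGF against 267, 369 and 356 across those without. PHF7 and OAZ3, genes of male germ cells, had 13.9 ± 1.02 and 7.38 ± 0.614 CPM (SD, n = 3) with PDGF and 75.8 ± 8.44 and 72.8 ± 14.3 CPM (SD, n = 3) without. MGP, a matrix protein gene, was at 474 ± 21.2 and 1347 ± 93.2 CPM (SD, n = 3).

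After the group means were taken out, SH3RF2, MARCHF10, HSD17B8, TMEM186 and CNPY2 followed the members most closely, with r from 0.9997 for SH3RF2 to 0.9973 for CNPY2. SH3RF2 had 54, 88 and 71 counts across the libraries with PDGF against 304, 393 and 464 across those without. Such a likeness over 6 libraries was searched for among many genes and names no shared control.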
